A study of Homo sapiens with 42 samples.

Results

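The 7 ATACseq libraries compared here came from MCF10A cells kept without growth factor for 24 h and from the starting cells, and they are 7 of 42 libraries in the series. ATACseq marks DNA that a transposase can reach, and MCF10A is an established, nontransformed line of human mammary epithelial cells. The libraries were chosen by their titles, 3 labelled PBS at 24 h (replicates A, B and C) and 4 labelled ctrl at 0 h (replicates A to D), and not by any measured value. All 7 came from cells seeded on collagen-1 that had already spent 18 h in medium with 5% horse serum, hydrocortisone and cholera toxin but no EGF or insulin. CTRL cells were collected then. PBS cells received fresh medium of the same kind with PBS, the vehicle of the ligands, and were collected 24 h later. PBS at 24 h (PBS 24H below) thus differed from CTRL in a further 24 h of culture without growth factor, and elapsed time and absence of growth factor cannot be told apart within these 7 libraries. The study's methods call the replicates biological, while the labels of these libraries do not say how the cultures were separated, and the p-values measure the spread between these libraries.

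EGF acts through its receptor and the RAS-ERK cascade. That cascade raises the FOS and JUN proteins, which pair to form AP-1, and in epithelial cells many distal enhancers are opened by AP-1 together with TEAD and RUNX factors. When growth factor is absent, FOXO factors enter the nucleus and proapoptotic genes such as BMF become active, while the hydrocortisone in the medium acts through the glucocorticoid receptor (GR). Promoters of broadly used genes are accessible in most cell states, whereas distal sites differ more between states.

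The files list peaks, which the authors called in each library on its own. A peak is here a distinct interval on chromosomes 1 to 22, X or Y with its strongest summit. CTRL replicates A to D had 90320, 92635, 91174 and 92947 peaks, and PBS 24H replicates A, B and C had 86519, 38293 and 32728. Each PBS 24H library had fewer peaks than each CTRL library, but replicate A was close to CTRL and far above B and C. The ratio of geometric means was 0.520, and the exact permutation test (two-sided) gave p = 0.0286, the smallest that 3 libraries against 4 allow. Without replicate A the ratio was 0.386. Read depth is not in the files. The genome-wide background recovered from the peak scores was 0.979, 1.17 and 0.985 fragments per base in PBS 24H A, B and C and 1.03 to 1.26 in CTRL, so replicate A had the lowest background and the most peaks of the PBS libraries.

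PBS 24H replicate A stood apart from B and C in enrichment as well. Among the 32728 strongest peaks of each library, a number set by the smallest library, the median fold enrichment (fragment pileup over local background, each plus 1) was 12.7 in replicate A, 6.56 in B and 6.04 in C, against 11.6 to 12.6 in CTRL. Over 25117 sites with a peak in all 7 libraries, log2 fold enrichment of replicate A correlated with the 4 CTRL libraries at r = 0.768 to 0.804 but with B and C at 0.620 and 0.568. These correlations are across sites of the same libraries and are given as a description. The main comparisons of peaks and sites below therefore used the same number of strongest peaks per library or gave the libraries the same distribution, and values from all peaks are named as such. Lane 4 held PBS 24H B and CTRL D, lane 8 held PBS 24H C and CTRL C, and the other libraries were on lanes with 1 group only. The paper removed ATACseq samples in which a low fraction of reads fell in peaks. The labels do not say whether any of these 7 libraries, such as PBS 24H B or C, was among them. That fraction could not be computed here, and it limits every difference between PBS 24H and CTRL below.

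**Figure D1:**
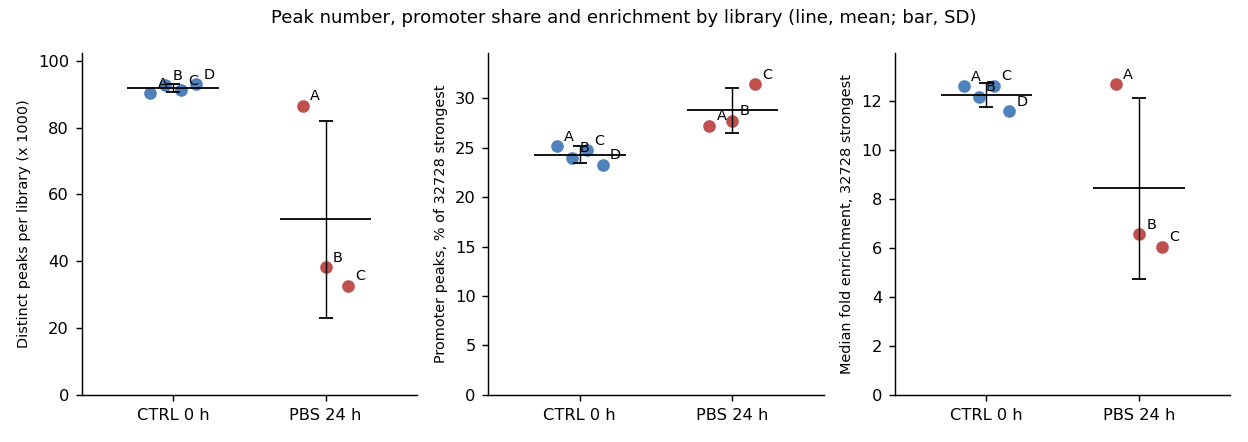
Number of peaks, in units of 1000 (left), percent of the 32728 strongest peaks with a promoter summit (middle) and median fold enrichment of those peaks (right) for each library, with replicate letters, group means as lines and SD as bars. PBS 24H A lies beside CTRL in peak number and enrichment, while in promoter share all 3 PBS 24H libraries (27.2 to 31.4%) lie above all 4 CTRL libraries (23.3 to 25.2%).

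The labelled cell type was checked by promoter peaks (within 1000 bp of a transcription start). Over all 19654 protein-coding genes, 10142 to 13186 had such a peak in a library, counting all peaks. Of 14 basal mammary epithelial markers 10 to 13 had a promoter peak in each library, among them KRT5 and LAMB3, and TP63 had none in any library. Of 12 luminal markers 6 to 11 did, at the low end near the share of all genes, of 7 fibroblast markers 0 to 2, of 6 endothelial markers 0 to 2, and of 7 blood cell markers 1 or 2. COL1A1, PDGFRB, PECAM1, CDH5, PTPRC and CD3E had no promoter peak in any of the 7 libraries.

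The sites that carry the comparison are shown first, as 201 bases of the plus strand of hg38 centred on the median summit. Capitals mark matches to any of the 24 motif strings described further on, on either strand. The gained site was among the strongest peaks of all 3 PBS 24H libraries and had no peak at all in CTRL. It lies 290867 bp from the start of the antiproliferative gene BTG1 and holds a match to the STAT string and to the GR string.
Gained site 1, chr12:91854879-91855079: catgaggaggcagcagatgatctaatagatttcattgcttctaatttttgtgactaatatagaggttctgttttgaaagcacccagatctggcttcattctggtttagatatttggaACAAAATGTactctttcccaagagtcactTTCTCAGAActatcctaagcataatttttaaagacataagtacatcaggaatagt

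The lost sites are the 3 with the highest enrichment in CTRL among those with no peak in any PBS 24H library. The first is intergenic near PPIAL4A and holds AP-1 and NF-Y strings. The second, in an intron of GPATCH2, holds AP-1 and CTCF strings, and the third, in an intron of METTL13, holds TEAD and RUNX strings.
Lost site 1, chr1:120859807-120860007: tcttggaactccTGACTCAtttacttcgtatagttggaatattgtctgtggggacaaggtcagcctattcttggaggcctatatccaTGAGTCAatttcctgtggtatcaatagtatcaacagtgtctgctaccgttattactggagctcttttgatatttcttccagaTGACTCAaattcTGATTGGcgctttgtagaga
Lost site 2, chr1:217482463-217482663: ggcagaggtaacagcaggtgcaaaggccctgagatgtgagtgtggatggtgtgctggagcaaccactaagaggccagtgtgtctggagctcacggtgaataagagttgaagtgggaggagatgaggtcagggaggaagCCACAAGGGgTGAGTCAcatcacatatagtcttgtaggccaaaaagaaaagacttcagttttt
Lost site 3, chr1:171794169-171794369: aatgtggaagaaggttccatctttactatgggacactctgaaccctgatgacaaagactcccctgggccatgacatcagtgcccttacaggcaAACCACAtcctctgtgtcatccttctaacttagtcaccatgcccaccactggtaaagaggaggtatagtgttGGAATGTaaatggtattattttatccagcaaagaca

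The next 6 are sites with a peak in all 7 libraries whose enrichment differed with the lowest adjusted p, 3 higher and 3 lower in PBS 24H. The first higher site is intergenic and holds GR, STAT, NF-Y and C/EBP strings. The second holds an E-box. The third lies in the centromeric tandem repeats of chromosome 1 and holds none of the 24 strings. Of the lower sites, the first is an intron of PDZK1 with no match, the second is an intron of ISM1 with AP-1, NF-Y and MYC/USF strings, and the third is intergenic near FABP2 with no match.
Higher site 1, chr2:66957284-66957484: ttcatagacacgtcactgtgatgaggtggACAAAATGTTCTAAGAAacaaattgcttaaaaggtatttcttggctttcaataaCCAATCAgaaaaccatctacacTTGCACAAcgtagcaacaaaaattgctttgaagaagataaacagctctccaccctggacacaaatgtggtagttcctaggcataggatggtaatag
Higher site 2, chr11:59561145-59561345: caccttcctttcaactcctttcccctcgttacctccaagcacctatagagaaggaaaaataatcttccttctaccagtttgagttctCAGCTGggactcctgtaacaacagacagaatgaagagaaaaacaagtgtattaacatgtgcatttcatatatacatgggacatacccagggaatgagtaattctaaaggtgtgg
Higher site 3, chr1:124290623-124290823: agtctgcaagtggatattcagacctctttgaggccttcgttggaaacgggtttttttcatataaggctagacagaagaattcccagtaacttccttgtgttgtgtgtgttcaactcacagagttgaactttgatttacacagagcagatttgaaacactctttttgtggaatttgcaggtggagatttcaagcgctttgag
Lower site 1, chr1:145706405-145706605: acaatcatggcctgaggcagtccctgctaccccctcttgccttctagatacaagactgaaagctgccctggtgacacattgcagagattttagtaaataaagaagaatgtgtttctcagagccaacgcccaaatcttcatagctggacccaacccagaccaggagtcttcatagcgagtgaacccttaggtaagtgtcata
Lower site 2, chr20:13231519-13231719: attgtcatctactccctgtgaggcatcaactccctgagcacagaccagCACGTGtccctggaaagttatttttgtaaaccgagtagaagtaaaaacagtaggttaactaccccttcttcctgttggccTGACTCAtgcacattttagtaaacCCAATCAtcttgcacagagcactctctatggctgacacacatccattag
Lower site 3, chr4:119370516-119370716: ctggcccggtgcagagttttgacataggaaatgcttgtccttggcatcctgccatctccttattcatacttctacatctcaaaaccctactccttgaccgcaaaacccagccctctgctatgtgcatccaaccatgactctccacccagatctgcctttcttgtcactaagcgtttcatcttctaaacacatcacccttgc

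Promoters took a larger share of the strongest peaks after 24 h in PBS. Of the 32728 strongest peaks, 27.2, 27.7 and 31.4% in PBS 24H A, B and C had a summit within 1000 bp of a protein-coding start, against 25.2, 24.0, 24.8 and 23.3% in CTRL A to D. The groups did not overlap, and the means differed by 4.48 percentage points, 28.8% ± 2.28 (SD, n = 3) against 24.3% ± 0.841 (SD, n = 4), with an exact permutation p of 0.0286 (two-sided). Without replicate A the difference was 5.26 points, and within lanes 4 and 8 it was 4.46 and 6.63 points. In all peaks, the shares were 16.2, 26.4 and 31.4% against 15.2 to 15.9%, so that replicate A was only just above CTRL. In numbers of genes, 9575, 9442 and 10344 of 19654 protein-coding genes had one of the strongest peaks at a start in PBS 24H A, B and C, against 8876, 8533, 8770 and 8291 in CTRL. Counting all peaks gave 13085, 10142 and 10344 genes against 12987 to 13186 (exact permutation p = 0.0571). Replicates B and C then lay below CTRL, and A lay within its range.

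Single sites were compared by whether they were among the 32728 strongest peaks of a library. Of 26452 sites that were among them in 2 to 6 libraries, 746 were gained (2.82%) and 1386 were lost (5.24%) by limma at adjusted p below 0.05, and 8842 had an unadjusted p below 0.05. Without PBS 24H A 2246 were gained and 2467 lost, without B or C 1230 or 1318 were gained, and with the sequencing lane as a term 2586 were gained and 3009 lost. In the lane fit the group difference comes only from PBS 24H B against CTRL D and PBS 24H C against CTRL C. PBS 24H A, alone on its lane, does not enter that difference. Each call was a site held by all libraries of one group and none of the other. For a single such site the exact permutation p is 0.0286, so the call names a complete separation of the 7 libraries and the adjusted p adds nothing to it. Gained and lost here mean a change of rank. At 677 of the 746 gained sites all 4 CTRL libraries had a peak of lower rank, and of the 1386 lost sites 1076 had a peak in 1 PBS 24H library, 141 in 2 and 169 in none. The median rank of the gained sites ran from 21909 to 24533 in the PBS 24H libraries and from 46282 to 50375 in CTRL. Their median fold enrichment, where a peak was present, was 10.9, 5.54 and 5.14 in PBS 24H A, B and C and 6.93 to 7.45 in CTRL. In B and C it was thus lower than in each CTRL library, as it was among the strongest peaks. At the lost sites, replicate A had a peak at 87.4% with a median fold enrichment of 8.06, against 11.7 to 12.8 in CTRL. Replicate B had a peak at 10.6% of them. Replicate C could have none, here and at the lost sites named below, because the 32728 peaks are its whole list. The list of replicate B was little longer, at 38293 peaks.

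Lost sites were nearly all distal. Of the 1386 lost sites 25 (1.80%) lay within 1000 bp of a protein-coding start, against 162 of the 746 gained sites (21.7%) and 14.7% of all sites tested. The median distance to the nearest start was 45074 bp for lost sites, 25638 bp for gained sites and 32178 bp for all tested. Introns held 44.7% of the lost sites and intergenic DNA 50.2%. GC content around the summit was alike, with medians of 48.3, 48.8 and 48.8% for lost, gained and tested sites. When promoter and distal peaks were matched in number separately, 713 sites were gained and 1194 lost. With all peaks counted and no allowance for peak number, 46 sites were gained and 6258 lost, and with each library's detection taken relative to its mean over sites found in the same number of libraries 46 were gained and none lost (limma, 6949 at an unadjusted p below 0.05).

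Only 2 gained sites had no peak of any rank in CTRL. At chr12:91854783-91855104, the site near BTG1 shown above, the fold enrichment was 13.7, 6.00 and 6.04 in PBS 24H A, B and C. A further 4 gained sites, named after their values were seen, had a peak in 1 CTRL library only. Among them were a site near IL1F10 and sites in introns of FNIP2 and TFRC. The TFRC site, in the gene of the transferrin receptor, had 14.2, 5.54 and 4.03 in PBS 24H and 5.61 in CTRL A alone.

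At 169 lost sites none of the PBS 24H libraries had a peak. This number cannot be compared with the 2 gained sites that had no CTRL peak, since the lists differed in length. They held 90320 to 92947 peaks in CTRL, and 38293 and 32728 in PBS 24H B and C. Of the 169 sites, the 12 with the highest enrichment in CTRL reached 12.1 to 23.5 in single CTRL libraries. The strongest, at chr1:120859738-120860187 near PPIAL4A, had 17.6, 23.5, 16.1 and 18.6 in CTRL A to D. In an intron of GPATCH2, at chr1:217482361-217482929, the values were 19.9, 18.7, 19.1 and 16.5. In an intron of METTL13, a methyltransferase of a translation elongation factor, at chr1:171793976-171794529, they were 17.3, 18.1, 15.6 and 19.0. The others were an intronic site of PPP1R12A, a regulatory subunit of myosin phosphatase, and intergenic sites whose nearest starts were FGF5, GALC, CXADR, NOTCH2NLA, KCNK2, COX18, PLCB4 and TMEM174. None of the 12 was at a promoter, and the METTL13 site, 12573 bp away, was the nearest of them to a start.

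Among the 25 lost promoter sites, named after their values were seen, were those of the cytokine gene CSF2, the integrin gene ITGB2, the secreted matrix protein gene THBS2, the RAC activator gene TIAM1, the interferon-induced gene IFIT3 and the epidermal differentiation genes SCEL and CST6. At the CSF2 start CTRL A to D had 11.8, 9.95, 9.48 and 9.62, and PBS 24H A had 7.26 with no peak in B or C. At the start of SCEL CTRL had 11.04, 10.98, 11.8 and 9.45, and no PBS 24H library had a peak. At the TIAM1 start CTRL had 11.7, 11.01, 13.5 and 12.2, and PBS 24H A had 8.68 with no peak in B or C.

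Both sets of sites were then looked up in libraries that had no part in calling them. Of 35 other libraries 25 had at least 32728 peaks, and the percent of the gained and lost sites among their 32728 strongest peaks was counted. In the PBS libraries of 48 h, replicates A and B held 78.95 and 79.4% of the gained sites and 10.97 and 9.09% of the lost sites. In the 4 EGF libraries of 24 h, which had the same time in culture as PBS 24H but with EGF, the shares were 14.6 to 23.5% of gained and 69.0 to 83.2% of lost sites. These 2 sets of libraries did not overlap in either share, but their times differed. At the matched time of 48 h the EGF libraries held 22.8 to 30.4% of gained and 62.6 to 68.4% of lost sites. They too did not overlap PBS at 48 h, and they lay mostly nearer to it than EGF at 24 h did. EGF 24 h replicate B had 37865 peaks, close to PBS 24H B, and held 23.5% of the gained and 69.0% of the lost sites. The 3 HGF libraries of 24 h lay between, with 35.7 to 43.3% of gained and 39.3 to 60.4% of lost sites. Over all sites tested by detection these libraries held 45.8 to 56.02%. At the shared sites that rose and fell (described next) the PBS libraries of 48 h had median log2 differences from CTRL of 0.67 and 0.72 and of -0.84 and -0.91, each library centred on its median over the shared sites with a peak in it, against -0.02 to 0.51 and -0.19 to -0.04 in EGF at 24 h. The 0.51 was in EGF replicate B with 37865 peaks, and the -0.02 in D with 85320. Only sites with a peak in the library count. Of the 148 that rose these were 98 in EGF B, and of the 430 that fell 322 and 299 in PBS at 48 h. The part that peak number plays in these medians was not tested. No test was run, since 2 libraries against 4 cannot give an exact permutation p below 0.0667.

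**Figure D2:**
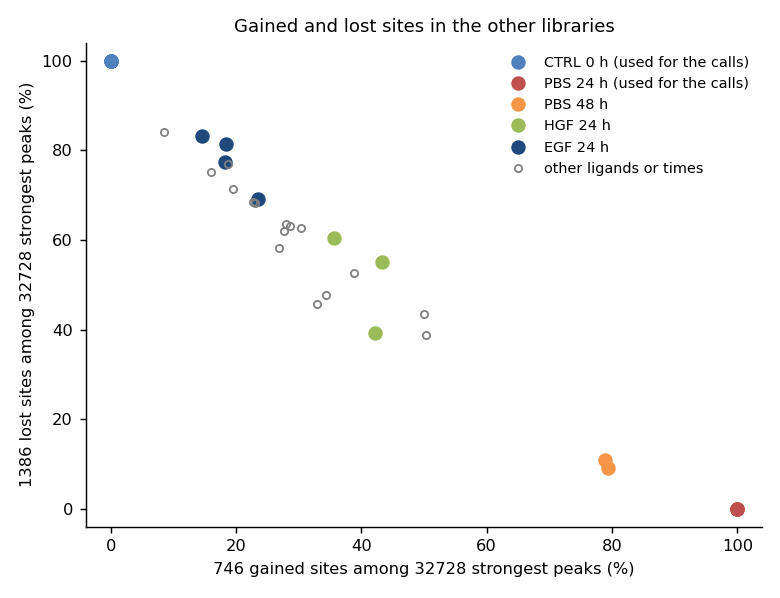
Percent of the 746 gained sites (x axis) and of the 1386 lost sites (y axis) among the 32728 strongest peaks of each library with at least that many peaks. CTRL and PBS 24H sit at the corners because they chose the sites, the 2 PBS libraries of 48 h lie near the PBS 24H corner and the 4 EGF libraries of 24 h near the CTRL corner.

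Sites with a peak in all 7 libraries were compared by fold enrichment, on a log2 scale after quantile normalization. These 25117 sites are the stronger ones, since PBS 24H C had to hold a peak, and 8653 of them were at promoters. By limma at adjusted p below 0.05 and a log2 difference of at least 0.5, 148 sites rose (0.589%) and 430 fell (1.71%) in PBS 24H, and 5355 had an unadjusted p below 0.05. The median difference over all 25117 sites was 0.01. Without PBS 24H A 1737 sites rose and 1733 fell, and with A as the only PBS library 24 rose and 559 fell of 59513 sites tested, a fit in which the spread came from CTRL alone and A was assumed to vary alike. Without PBS 24H B 57 rose, and leaving out 1 CTRL library (A, B, C or D) left 36, 19, 7 or 25 that rose and 141, 74, 31 or 100 that fell. Centring each library on its median in place of quantile normalization gave 407 that rose and 473 that fell, and normalizing promoter and distal sites separately gave 141 and 252.

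The direction differed between promoters and distal sites. At the 8653 shared promoter sites the median log2 difference was 0.11, 67.5% of differences were positive, 24 sites rose and 13 fell. At the 16464 distal sites the median was -0.05, 43.4% were positive, 124 rose and 417 fell. Promoters were 16.2% of the sites that rose and 3.02% of those that fell, against 34.4% of all shared sites, so both kinds of call were more distal than the background. These shares are descriptions of the calls and carry no test.

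**Figure D3:**
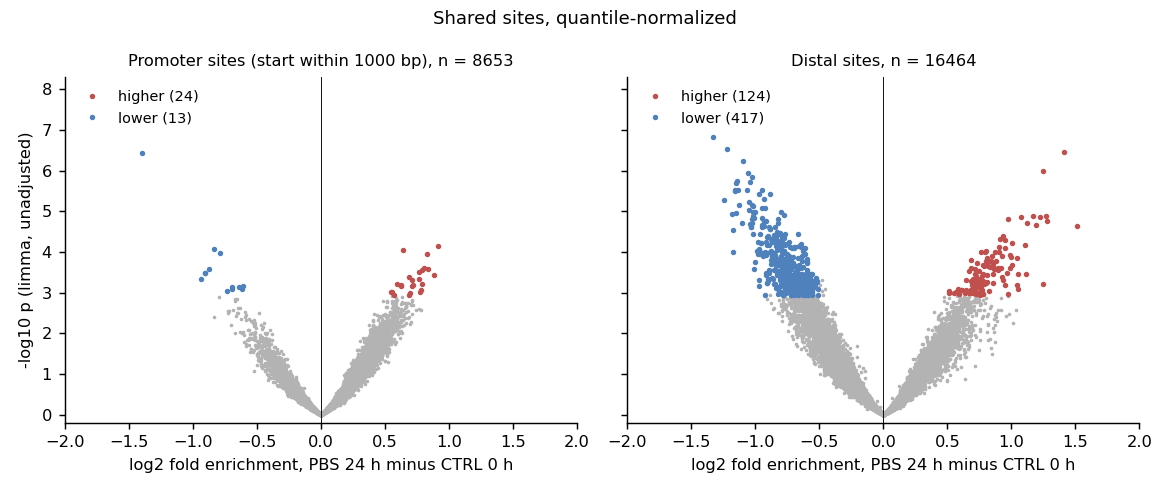
Difference in log2 normalized fold enrichment, PBS 24H minus CTRL, against the unadjusted limma p on a -log10 scale, for shared promoter sites (left) and shared distal sites (right). Coloured points passed the adjusted p and the difference of 0.5, which 24 promoter sites did upward and 13 downward, against 124 and 417 distal sites.

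Of the 12 shared sites that rose with the lowest adjusted p, 4 lay in centromeric tandem repeats, and in all 18 of the 148 did, against 149 of the 25117 shared sites. Reads in such repeats map to many copies, so these positions are uncertain. None of the 430 sites that fell was of this kind. Outside repeats the rise with the lowest adjusted p was at chr2:66957160-66957547, an intergenic site 439940 bp from ETAA1, with normalized fold enrichment of 11.2, 10.6 and 12.7 in PBS 24H A, B and C and 3.52, 3.84, 4.96 and 5.11 in CTRL A to D. The PBS values did not overlap the CTRL values, and the rise was 2.66-fold (log2 1.41, SE 0.19, limma adjusted p = 0.00227). A site at chr11:59560349-59561467 near the olfactory receptor gene OR4D9 rose 2.38-fold (adjusted p = 0.00410, limma). At chr11:34754155-34754620, 111719 bp from EHF, an epithelial ETS factor, the values were 6.66, 10.4 and 8.43 in PBS 24H and 4.43, 4.19, 3.56 and 2.86 in CTRL, a 2.25-fold rise (adjusted p = 0.00916, limma).

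Intronic sites of the cadherin genes FAT3 and PCDH15 rose 2.33-fold and 2.17-fold, and one in DECR1, an enzyme of unsaturated fatty acid oxidation, rose 1.92-fold. Near EPHA6 the rise was 2.85-fold, and CTRL A at 18.6 was far from the other CTRL libraries at 5.71 to 6.66. PBS 24H at this site had 21.4, 23.5 and 24.1.

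Of the 430 sites that fell, 40.0% lay in introns and 55.35% were intergenic. In PDZK1, a scaffold protein of membrane transporters, the site at chr1:145706180-145706965, 863 bp from a start, had 7.31, 4.41 and 4.40 in PBS 24H and 13.0, 14.0, 14.9 and 13.0 in CTRL. It was 2.63-fold lower (log2 -1.40, SE 0.19, limma adjusted p = 0.00227). In ISM1, which encodes a secreted protein, the site at chr20:13231157-13231778 had 5.55, 7.95 and 5.34 against 17.1, 13.6, 15.3 and 16.6, a 2.52-fold fall (adjusted p = 0.00227, limma). Near FABP2 the site at chr4:119370310-119370851 had 6.10, 5.61 and 5.36 against 12.8, 13.9, 11.6 and 14.9. In each of these the highest PBS 24H value lay below the lowest CTRL value.

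A distal site 139246 bp from KLF6, a growth factor responsive factor, fell 2.14-fold. Intronic sites fell in MSH4, a meiotic mismatch repair gene (2.08-fold), in SH3RF1, a ubiquitin ligase and scaffold of JNK signaling (2.21-fold), in CDK14, a cyclin-dependent kinase (2.06-fold), and in SUSD1, LRBA and RBKS (2.24-fold, 2.20-fold and 2.09-fold). An intronic site in CCDC192 fell 2.04-fold. In all 12 sites named for each direction the groups did not overlap, a description, since the sites were chosen by their p in these libraries. With each of the 7 libraries left out in turn, all 12 that fell kept their call each time, as did 6 of the 12 that rose. These 6 were the sites near ETAA1, OR4D9 and EPHA6 and, in centromeric tandem repeats, those near SRGAP2C, EMB and ZNF716. The other 6 that rose lost it without CTRL C. They lay in introns of FAT3, PCDH15, DECR1 and CAMK1G, near EHF and, in such repeats, near ZNF33B. The DECR1 site lost its call without CTRL B as well.

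**Figure D4:**
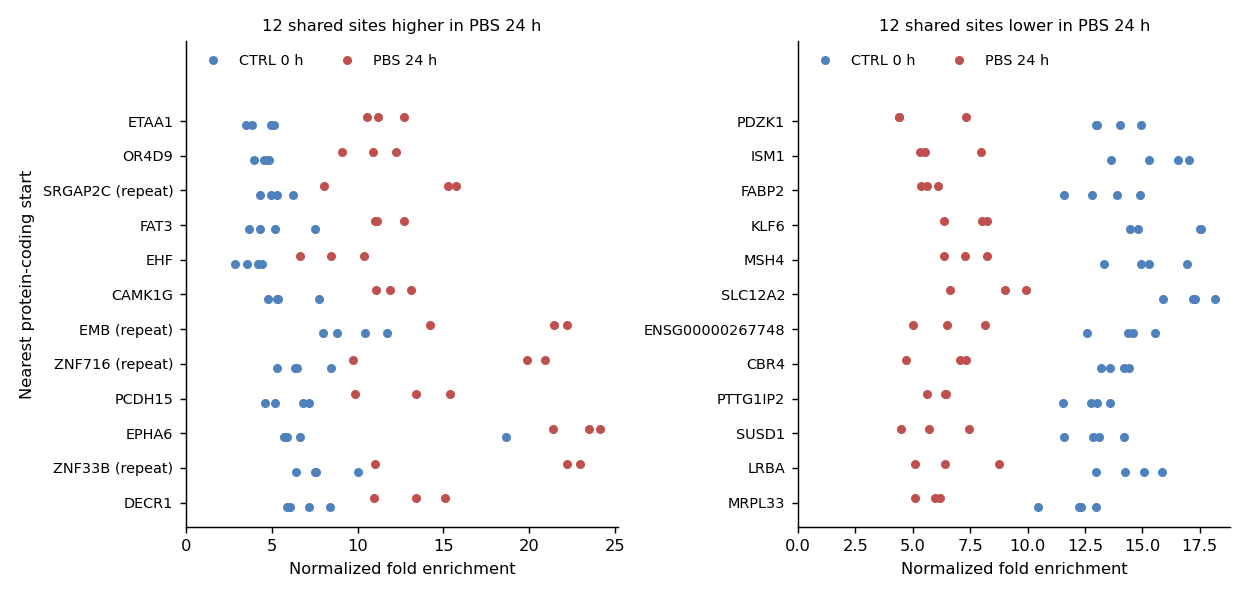
Quantile-normalized fold enrichment of the 12 shared sites with the lowest adjusted p that rose (left) and fell (right) in PBS 24H, one point per library, named by the nearest protein-coding start, with 4 sites in centromeric tandem repeats marked; the introns of CCDC192, SH3RF1, CDK14 and RBKS thus appear as SLC12A2, CBR4, PTTG1IP2 and MRPL33. At the EPHA6 site CTRL A (18.6) lies close to the PBS 24H libraries (21.4 to 24.1), away from the other CTRL libraries.

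The 24 promoters that rose were looked at after their values were seen, and each of them lost its call with at least 1 of the 7 libraries left out, as did 12 of the 13 that fell. TRIM41, a ubiquitin ligase, rose 1.89-fold (8.26, 9.70 and 12.4 in PBS 24H against 4.85 to 5.57 in CTRL, limma adjusted p = 0.0164). FEM1A, a substrate receptor for protein degradation, rose 1.56-fold, the cell polarity gene PARD6B 1.73-fold, the repressor gene KLF3 1.699-fold, and the nuclear transport genes RANGAP1 and TPR 1.51-fold and 1.48-fold. The promoter of the laminin-332 subunit LAMB3, at chr1:209651151-209651659, had 4.97, 9.12 and 7.90 in PBS 24H and 4.21, 3.67, 3.41 and 4.16 in CTRL, 1.85-fold higher (limma adjusted p = 0.0308). Without PBS 24H B or C or any 1 CTRL library the log2 difference was 0.78 to 0.91 and no longer passed. Of the 13 promoters that fell, PDZK1 changed most and kept its call throughout, and PRPF8, a core spliceosome protein, and LGMN, a lysosomal protease, fell 1.52-fold and 1.56-fold.

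Sites within 50 kb of a start were counted for 19 gene lists of 211 genes, of which all were annotated. Near any of these genes 487 sites were tested by detection, and 17 were gained (3.49%) and 20 lost (4.11%), beside 2.82 and 5.24% of all tested. Of 611 shared sites 5 rose (0.818%) and 4 fell (0.655%), beside 0.589 and 1.71%. The median log2 difference of the shared sites was 0.10, beside 0.11 at all shared promoters and 0.01 at all shared sites, and 253 of the 611 were promoters. Gained, lost and higher calls were thus at rates near the background and lower calls below it, and what follows gives single sites.

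Near the 12 ERK pathway feedback genes 2 of 40 shared sites fell and none rose. The site 33400 bp from ETV4, an ETS factor induced by ERK, had normalized values 1.71-fold lower in PBS 24H (log2 -0.77, SE 0.16, limma adjusted p = 0.0180), a call lost without any 1 CTRL library. The site 35126 bp from ERRFI1, an inhibitor of the EGF receptor that is also a glucocorticoid target, was 1.75-fold lower (adjusted p = 0.0468, limma). Its deposited enrichment in CTRL C was 17.4 beside 12.1 to 12.7 in the other CTRL libraries, and the site no longer passed without PBS 24H B, without PBS 24H C or without any 1 CTRL library. None of the 31 sites tested by detection near this list was called.

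Near the 16 immediate early genes 3 of 50 tested sites were gained and 2 lost, and none of 66 shared sites was called. The gained site 4865 bp from EGR1 had deposited fold enrichment of 5.73, 4.41 and 4.54 in PBS 24H and 4.30, 4.77, 4.70 and 3.10 in CTRL, so the groups overlapped in deposited enrichment, and the normalized difference of 0.50 did not pass (limma adjusted p = 0.135). Lost sites lay 15719 bp from IER2 and 22385 bp from EGR3. Another gained site, in a BIN3 intron, lay 35226 bp from EGR3, and its normalized difference of 0.17 did not pass (limma adjusted p = 0.589). Near the EGF receptor family and its ligands 1 of 28 tested sites was lost, 34326 bp from HBEGF, with 15.1, 12.4, 14.5 and 11.2 in CTRL and 8.47 in PBS 24H A alone, and 1 was gained, in GRB7 near ERBB2. The normalized difference at the GRB7 site, 0.23, did not pass (limma adjusted p = 0.542).

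Near the 12 FOXO targets, 2 of 18 tested sites were gained and 2 lost, and 1 of 34 shared sites rose. The gained site 1800 bp from TXNIP, an inhibitor of glucose uptake, had 5.10, 4.75 and 3.65 in PBS 24H and 3.61, 2.92, 4.06 and 2.89 in CTRL. The groups overlapped in these values, and the normalized difference of 0.57 did not pass (limma adjusted p = 0.106). The promoter of FBXO32, the ubiquitin ligase atrogin-1, rose 1.73-fold (8.89, 12.2 and 9.64 normalized against 4.75 to 7.43, limma adjusted p = 0.0380), a call lost without PBS 24H B, PBS 24H C or any 1 CTRL library. The lost site 42690 bp from IRS2, an insulin receptor substrate, had 16.2, 16.0, 18.4 and 15.5 in CTRL and 7.37 in PBS 24H A, with no peak in B or C.

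Among 13 apoptosis regulators the intronic site of BMF at chr15:40103117-40103893, 2602 bp from the start, rose 1.83-fold (log2 0.87, SE 0.18, limma adjusted p = 0.0180). Its deposited enrichment was 10.2, 8.001 and 6.08 in PBS 24H A, B and C and 5.72, 5.25, 5.62 and 5.79 in CTRL, so all PBS libraries were above CTRL before normalization as well. With PBS 24H B or any 1 CTRL library left out, the log2 difference was 0.79 to 0.90 and no longer passed. BMF encodes a BH3-only protein that promotes apoptosis of mammary epithelial cells. Near the 13 genes 1 of 40 shared sites rose, and 2 of 39 tested sites were lost (5.13%, beside 5.24% of all tested) and none gained. An intronic site of the antiapoptotic gene BCL2L1 was lost, with 13.2, 12.9, 14.9 and 13.8 in CTRL and 7.92 in PBS 24H A alone. The other lost site lay 33641 bp from the proapoptotic gene BAK1, with 7.10, 8.19, 7.60 and 8.52 in CTRL and 6.37 in PBS 24H A alone.

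Near the 10 glucocorticoid response genes 4 of 35 tested sites were gained and none lost. They lay 54 bp from a start of ZBTB16, 6444 bp from DUSP1, 2559 bp from FKBP5 and 10049 bp from TSC22D3. The FKBP5 site had 9.69, 7.43 and 4.20 in PBS 24H and 5.72, 3.83, 4.57 and 5.19 in CTRL, and its normalized difference of 0.78 did not pass (limma adjusted p = 0.0555). At ZBTB16 and DUSP1 the normalized differences were 0.34 and 0.49 (limma adjusted p = 0.272 and 0.156). The TSC22D3 site had 9.08, 5.17 and 5.17 in PBS 24H and 9.05, 8.79, 6.48 and 8.61 in CTRL, so its deposited enrichment was lower in PBS 24H B and C than in each CTRL library, and the normalized difference was 0.03 (limma adjusted p = 0.940). The promoter of the metallothionein gene MT2A, named after its values were seen, rose 1.72-fold (limma adjusted p = 0.0438), a call lost in the same 6 fits as that of FBXO32, and the ERRFI1 site above was the only one of 57 shared sites that fell.

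Near the 10 cAMP response genes 3 of 43 tested sites were gained, by NR4A2, PPARGC1A and the DUSP1 site above, and 1 was lost, 13855 bp from NR4A2, with 20.8, 14.8, 17.4 and 17.4 in CTRL and 7.58 in PBS 24H A alone. At the gained sites by NR4A2 and PPARGC1A the normalized differences of 0.52 and 0.49 did not pass (limma adjusted p = 0.187 and 0.147). Near the cholesterol synthesis genes 1 of 22 tested sites was gained, by IDI1, and both lost sites belonged to INSIG1, a brake on sterol synthesis, 6549 and 9349 bp from its start. Near the YAP and TEAD targets a site 6593 bp from PTPN14, a phosphatase that restrains YAP, fell 1.78-fold (limma adjusted p = 0.0310), a call lost without PBS 24H B or C or CTRL A, C or D, a LATS2 intron was gained and a site near NUAK2 was lost. The LATS2 site had a normalized difference of 0.31 that did not pass (limma adjusted p = 0.413).

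Near the 14 basal epithelial genes a site by SFN was lost, of 54 tested, and 2 of 62 shared sites rose, both by LAMB3, its promoter and a site in a CAMK1G intron 43778 bp away at chr1:209607206-209608011. The latter had normalized values of 13.1, 11.9 and 11.1 in PBS 24H and 5.39, 4.77, 5.33 and 7.74 in CTRL, a 2.11-fold rise (limma adjusted p = 0.00916), lost only without CTRL C. Near the 12 keratinocyte differentiation genes 3 of 23 tested sites were lost, by KRT1, KRT10 and TGM1, and none gained. Near the luminal genes 2 of 30 were gained and 1 lost. Near the cell cycle genes 1 of 18 was lost, by MCM5, and near the cell cycle inhibitors 1 of 22 was gained, 7558 bp from CDKN1B and 551 bp from the start of APOLD1, with a normalized difference of 0.35 that did not pass (limma adjusted p = 0.318). Near the inflammatory genes 1 of 24 was lost, by ICAM1. No site was called near the genes of the epithelial-mesenchymal transition or near fibroblast or blood cell markers. Near the endothelial markers sites in introns of VWF and TEK were lost and one in PECAM1 fell (a call lost without PBS 24H B or C or CTRL B, C or D), while none of these 3 genes had a promoter peak in any library.

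The motif comparison asked whether the distal peaks differed in the binding sequences they hold. Each of 24 short strings was looked for on both strands within 100 bp of the summit in the distal peaks among the 32728 strongest of each library. Beside NF-kB and the 7 strings given next, 16 were searched. TGACGTCA stood for CREB, which answers to cAMP. The FOX family was searched as TGTTTAC. For ETS factors the letters were CCGGAAG. The GC-box of KLF and SP factors was searched as GGGCGGG. NF-Y, which binds promoters, had the letters CCAATCA. GCGCATGCG stood for NRF1, TTCCCGCC for E2F, AAGATGGC for YY1 and CCACNAGGG for the insulator protein CTCF. TTCNNNGAA stood for STAT, GAAANNGAA for IRF, ACCNGGTT for GRHL, GTCTAGAC for SMAD and CCATATNNG for SRF. The E-box of other helix-loop-helix factors was searched as CAGCTG on both strands. For factors of the GATA family the letters were AGATAAG. Of all distal sites tested 7.64% held the STAT string, 2.24% NF-Y, 1.40% CTCF, 13.6% the E-box and 1.16% SRF. Strings can overlap one another, a match is no proof of binding, and the reversed strings served as controls. None of the 24 passed an adjusted p of 0.05 (exact permutation test, two-sided, Benjamini-Hochberg over 24). The groups did not overlap for 7 strings with an unadjusted p of 0.0286, the smallest possible, which gives an adjusted p of 0.0980. They did not overlap for the ETS string either, which was lower in PBS 24H. It was in 1.42, 1.33 and 1.46% against 1.63, 1.49, 1.59 and 1.70% in CTRL (exact permutation p = 0.0571, unadjusted).

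Of the 7 strings with the smallest p, the 3 with lower shares in PBS 24H were those of AP-1, TEAD and RUNX. The AP-1 string TGANTCA was in 51.1, 46.7 and 40.4% of distal peaks in PBS 24H A, B and C and in 52.5, 56.8, 54.6 and 56.7% in CTRL A to D. Replicate A was the nearest to CTRL and C the farthest. The TEAD string ACATTCC was in 4.61, 5.11 and 4.84% against 6.15, 6.00, 6.52 and 6.05%, with replicate A the lowest of the 7. The RUNX string TGTGGTT was in 6.55, 6.55 and 6.08% against 7.62, 8.005, 8.14 and 7.92%. For TEAD and RUNX the 3 PBS 24H libraries lay close together, unlike in peak number.

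The 4 of these 7 strings with higher shares were those of GR, C/EBP, MYC/USF and p53/p63. The GR string ACANNNTGT was in 8.77, 9.74 and 9.26% of distal peaks in PBS 24H and in 8.15, 8.21, 8.09 and 7.74% in CTRL. The C/EBP string TTGCNCAA was in 7.03, 6.78 and 6.13% against 5.86, 6.07, 5.71 and 5.64%, and the MYC/USF string CACGTG in 3.82, 3.64 and 3.64% against 3.38, 3.24, 3.19 and 3.27%. The p53/p63 string ACATGTC was in 2.84, 2.73 and 2.65% against 2.58, 2.54, 2.52 and 2.31%. Of 23 reversed strings 2 reached the smallest possible p too, those of AP-1 (7.55 against 8.53% on average) and NF-Y (1.47 against 1.76%). The FOX string was in 4.14 to 4.50% against 4.05 to 4.30% and overlapped between the groups. GC content of the distal peaks was 49.2% against 49.6% (exact permutation p = 0.457).

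**Figure D5:**
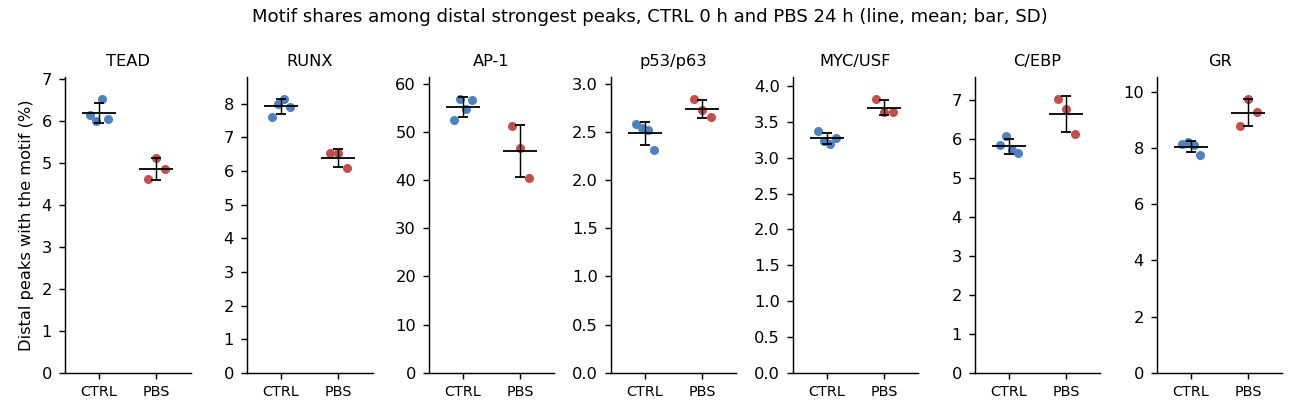
Percent of distal peaks among the 32728 strongest that hold a motif string within 100 bp of the summit, for the 7 strings with the smallest possible exact permutation p, one point per library with the group mean (line) and SD (bar). TEAD, RUNX and AP-1 were lower in PBS 24H and p53/p63, MYC/USF, C/EBP and GR higher, with none past an adjusted p of 0.05.

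The called sites held these strings unequally. Among distal lost sites 61.4% held the AP-1 string, 10.5% the TEAD string and 11.2% the RUNX string, against 50.0, 5.71 and 7.21% of all distal sites tested. Among distal gained sites the shares were 30.8, 2.91 and 6.51%. The C/EBP string was in 11.99% of distal gained sites and 2.94% of distal lost sites, against 5.71% of those tested, the NF-kB string GGGNNTTCC in 5.99 and 1.76% against 3.12%, and the GR string in 10.6 and 5.95% against 9.06%. Shared sites showed the same kinds of shares. Distal sites that fell held the AP-1 string in 59.5% and the TEAD string in 11.99%, and distal sites that rose in 25.8 and 2.42%, against 48.9 and 5.22% of all distal shared sites. Of the 860 distal shared sites with the TEAD string 50 fell and 3 rose. As these sites were chosen by the same libraries, the shares are descriptions with no test.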

How the data were processed

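ATACseq (Omni-ATAC, 50000 cells per library, 100 bp paired ends) was done on MCF10A cells. The authors trimmed reads with Trimmomatic 0.36.5, aligned them to hg38 with Bowtie2 2.3.4.1, removed mitochondrial reads and duplicates (Picard) and called peaks in each library with MACS2 2.1.1.20160309.5 (q 0.01, no control sample). The submitters' processing notes also name deepTools 3.1.2. The deposited peak files give positions, a score (a rounded multiple of -log10 q), the fold enrichment (a ratio of pileup to local background, each plus 1) and -log10 p and q, all as the authors' caller wrote them. Reads and depth were not used here, so no counting interval is given, and weak peaks depend on a depth that is unknown. The background per base was recovered from fold enrichment and -log10 p with the Poisson distribution (scipy 1.17.1).

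Peaks of the 7 libraries were merged into 128271 sites at 1 bp overlap. Gained and lost sites were tested with limma 3.58.1 (R 4.3.3) on detection among the 32728 strongest peaks (adjusted p 0.05, difference 0.5). Shared sites were tested with limma on quantile-normalized log2 fold enrichment (adjusted p 0.05, log2 difference 0.5). Single values per library were tested with the exact permutation test, by listing all arrangements (numpy 2.4.6). The fits were tested on simulated data. Promoters are summits within 1000 bp of a protein-coding start in the hg38 annotation. Named sites were, per direction, up to 12 with no peak in the other group and the highest enrichment, 12 shared sites with the lowest adjusted p, and up to 4 called sites per gene list. The comparison, sites and lists were chosen with earlier results of these data known. Leaving out each library, a replicate block, lane, other peak thresholds, windows and normalizations were tried. Listed summits, within-lane values, all-peak promoter counts, leaving out centromeric repeats and leaving out libraries for promoter sites were added after seeing the data. The other 35 libraries stayed out of the tests. Some sites and the genes near them are not reported here.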

Additional observations from a re-analysis of the deposited data

Results flagged for a closer look

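Of 111 groups of 4 CTRL libraries examined, 5 had 1 library far from the other 3, and chance alone gives about 1 in 20. The share of distal peaks with the KLF/SP string was 5.25% in CTRL A and 4.86 to 4.92% in the others. At the site near EPHA6, which was called higher in PBS 24H, deposited fold enrichment was 21.6 in CTRL A and 6.43 to 6.92 in the others. At the site near FABP2, called lower, CTRL C had 13.68 and the others 15.3 to 15.7. At the site near ERRFI1, called lower, CTRL C had 17.36 and the others 12.1 to 12.7. At the gained site in PPARGC1A, CTRL B had 8.996 and the others 6.73 to 6.95. The cause of these values was not tested.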

How the results depend on the processing

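The log10 difference in peak number was -0.284 and ranged from -0.414 to -0.203 with 1 library left out, the promoter share difference from 3.17 to 5.26 points and the difference in genes with a promoter peak among the strongest from 891 to 1342. These smaller designs cannot give an exact permutation p below 0.05, so their p values say nothing on stability. Counting all peaks reversed the sign of the difference in genes, to -1901.92, with PBS 24H A within the CTRL range (exact permutation p = 0.0571). Gained sites numbered 880 to 2246 and lost sites 1580 to 2467 with 1 library left out, and shared sites that rose 7 (without CTRL C) to 1737 (without PBS 24H A) and that fell 31 to 1733 (the same libraries). A lane term gave 2586 gained, 3009 lost, 927 that rose and 1198 that fell, with a group difference that PBS 24H A does not enter. PBS 24H A as the only PBS library gave 2745 lost and 24 that rose, with the spread taken from CTRL alone, and its gained sites could not be called. Detection in all peaks gave 46 gained and 6258 lost, and detection relative to sites of the same class 46 and 0. Peaks with -log10 q of at least 5 gave 84 that rose and 216 that fell, median centring 407 that rose, separate normalization of promoter and distal sites 252 that fell, and normalization within 10 classes of GC content 277. The study's thresholds for molecular features (adjusted p of 0.01, log2 difference of 1.5) gave 0 in each direction. The study did not state them for fold enrichment of single peaks, and the largest called differences here were 1.51 and -1.39. None of the motif shares passed in the alternative runs that kept all 7 libraries. With 1 library left out or with the replicate block none could pass, since those designs give no exact permutation p below 0.05. Calls near list genes numbered 46 within 50 kb and 18 within 10 kb. The cause of these shifts was not tested. Replicate letters did not pair the libraries, with correlations of same-letter deviations of -0.0153, 0.0899 and 0.0304. With the replicate block, 915 sites were gained, 1787 lost, 109 rose and 354 fell, and the differences were -0.282 in log10 peak number, 4.14 points in promoter share and 1060.67 genes (exact permutation p = 0.25 for each, the smallest 3 pairs allow). Read depth is unknown and limits weak peaks.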
